A study of Mus with 15 samples.

Results

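The genes described here are 50 mouse genes of the lysosome, the acid compartment in which cells break down proteins, sugars, lipids and phagocytosed material. They were taken by symbol from the deposited expression matrix, and all 50 were found among its 55471 genes and passed the filter on low counts. They comprise 16 genes of the V-ATPase, 26 hydrolases, 3 activator or granulin genes, 3 membrane proteins and 2 transcription factors. Their RNA was measured by sequencing in adipose tissue from C57BL/6 wild-type mice aged 7 weeks, with 5 samples in each of 3 groups. The groups were fat grafts at day 7, fat grafts at day 3, and control fat, and no genetic change or drug is named for any group. The labels give neither the depot, the recipient site and the donor nor whether the 5 samples of a group came from separate animals, so p-values measure the spread between these samples.

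The V-ATPase is a rotary proton pump. Its V1 sector, which faces the cytosol, splits ATP, and its V0 sector in the membrane passes protons into the lumen, where the low pH activates the hydrolases. Cathepsins are lysosomal proteases, and glycosidases and lipid hydrolases complete the breakdown of macromolecules. Transcription factors of the MiT/TFE family, which include Tfeb and Tfe3, bind promoters of many of these genes. In fat, lysosomes of macrophages are known for clearing lipid and remnants of dead adipocytes, and osteoclasts and multinucleated giant cells are known for secreting acid and cathepsin K.

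Total estimated counts ran from 17.1 to 32 M per library. Levels are given as CPM, which are counts relative to library size, scaled for library composition, and changes are log2 fold changes ± SE from a limma-voom fit of all 15 libraries, in which 16051 genes were tested. A gene was called at a Benjamini-Hochberg adjusted p under 0.05. Levels of different genes are compared in the authors' TPM, which account for transcript length. Cell type markers differed strongly between groups. Their counts of calls below stand beside 32.2% of all tested genes called higher and 28.4% lower at day 7 against control. At day 3 against control the shares were 30.1% and 30.3%. The summed level of 12 macrophage markers was 3680 to 7070 CPM in day 7 grafts, 3050 to 6240 CPM in day 3 grafts and 582 to 1800 CPM in controls, with 11 of the 12 called higher in both graft groups and none at 0 throughout a group. The 10 adipocyte markers summed to 232 to 522 CPM at day 7, 893 to 3000 CPM at day 3 and 9780 to 28700 CPM in controls, and all 10 were called lower in both graft groups. The 8 fibroblast markers summed to 17200 to 21400 CPM, 7750 to 16000 CPM and 1160 to 4590 CPM in the same order of groups. Of the 8, 6 were called higher at day 7 and 4 at day 3, and none lower. The 7 B cell markers summed to 8.49 to 23.4 CPM, 3.56 to 7.72 CPM and 168 to 2140 CPM, with control 4 at the low end of the controls. Dendritic cell markers summed to 91.2 to 228, 112 to 203 and 278 to 808 CPM, and those of lymph node stroma to 1.46 to 126, 7.59 to 48.5 and 42.2 to 737 CPM, where controls overlapped with the grafts. The 8 neutrophil markers summed to 155 to 939 CPM, 77.9 to 458 CPM and 19.3 to 176 CPM, with 5 of 8 called higher in both graft groups. The part of these shifts in the results on lysosomal genes was not tested, and in such bulk tissue more cells of a type and more RNA per cell cannot be told apart.

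Most of the 50 lysosomal genes were higher in grafts than in control fat at both times, and few differed between the times. Together they held 2.49 ± 0.13% of all TPM in day 7 grafts, 2.12 ± 0.347% in day 3 grafts and 0.652 ± 0.13% in controls (SD, n = 5 each). Against control, 41 genes rose, 2 fell and 7 did not pass the test at day 7, where 32.2% of all tested genes were called higher and 28.4% lower. At day 3, 39 rose, 2 fell and 9 did not pass, where 30.1% of all tested genes were called higher and 30.3% lower. The median log2 change of the 50 genes was 0.95 at day 7 and 0.96 at day 3, against 0.03 and -0.02 over all tested genes. Both comparisons use the same 5 controls. Between day 7 and day 3 grafts, 2 genes were called higher and none lower, and the median change was 0.05. Of all tested genes, 3.18% were called higher and 1.71% lower, so these counts are near that background.

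**Figure D1:**
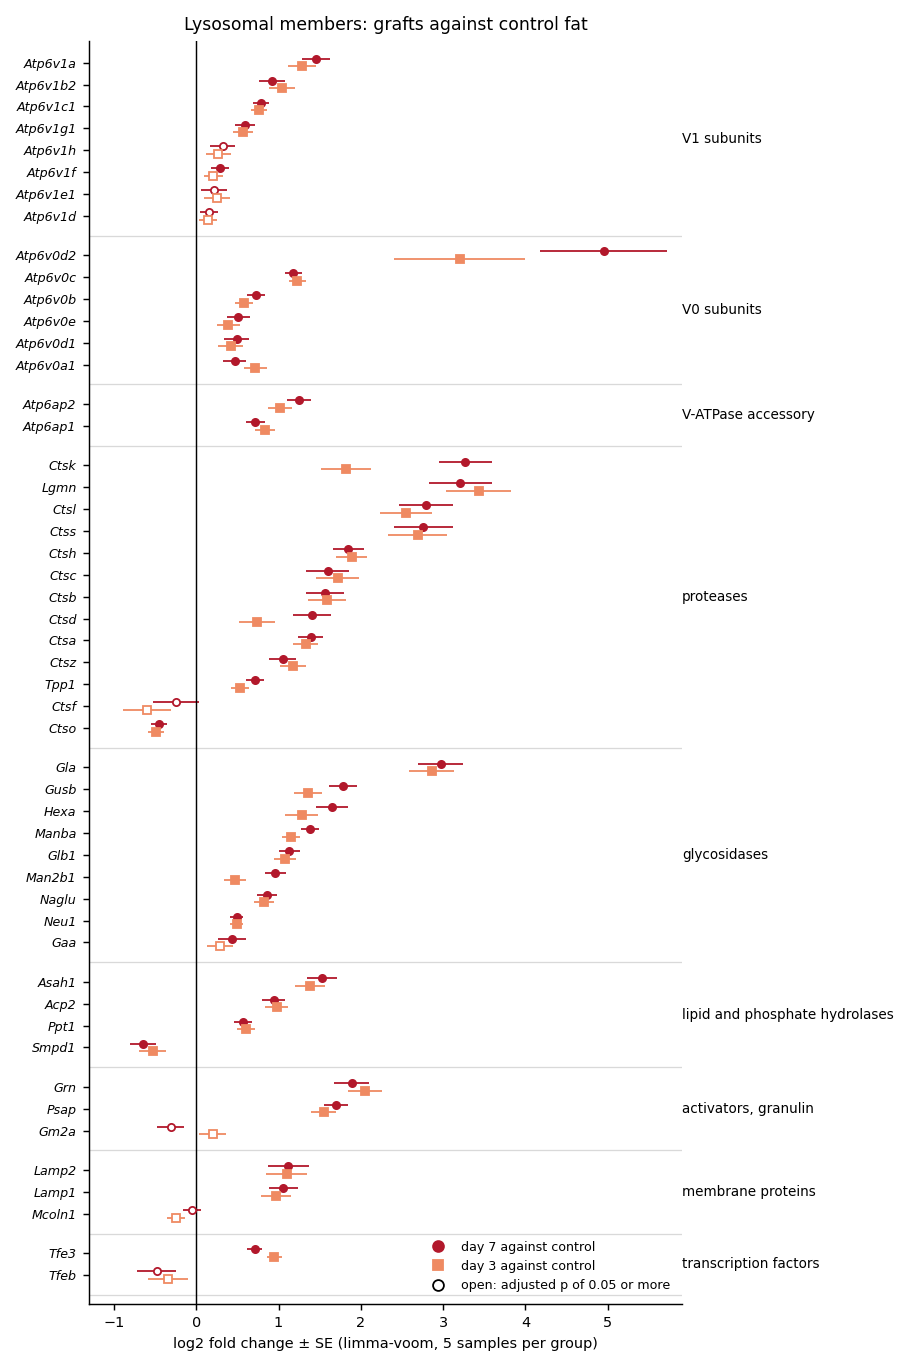
Log2 fold changes ± SE of the 50 lysosomal genes in day 7 grafts (circles) and day 3 grafts (squares) against controls, ordered within each role by the day 7 change, with 5 libraries per group. Filled symbols passed an adjusted p of 0.05. Most symbols lie right of 0, Atp6v0d2 lies farthest right at 4.95 and 3.20, and Ctso and Smpd1 are the filled symbols left of 0.

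Of the 8 subunits of the V1 sector, 5 rose at day 7 and 4 at day 3, and none fell, with median changes of 0.45 and 0.42. These counts, and those of the other roles below, stand beside 32.2% of all tested genes called higher and 28.4% lower at day 7. At day 3 these shares were 30.1% and 30.3%. Atp6v1a, the catalytic A subunit that binds ATP, had 312, 322, 253, 288 and 270 CPM in day 7 grafts 1 to 5, 289, 180, 292, 304 and 236 CPM in day 3 grafts, and 106, 96, 78.1, 140 and 119 CPM in controls. Every graft lay above every control, and the 2 graft groups overlapped. The change was 1.45 ± 0.17 at day 7 (adjusted p = 5.1e-06) and 1.28 ± 0.17 at day 3 (adjusted p = 1.54e-05).

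Atp6v1b2, the B subunit that forms the V1 ring together with A, had 294, 375, 266, 297 and 305 CPM at day 7, 369, 280, 373, 323 and 322 CPM at day 3, and 144, 145, 127, 235 and 179 CPM in controls. Control 4 was the highest control and still below every graft. Its changes were 0.92 ± 0.16 (adjusted p = 0.000155) and 1.04 ± 0.16 (adjusted p = 5.81e-05). The stalk subunits Atp6v1c1 (0.79 and 0.76) and Atp6v1g1 (0.59 and 0.57) rose at both times. Atp6v1f, a subunit of the central stalk, rose at day 7 by a narrow margin (0.29 ± 0.11, adjusted p = 0.0383), and at day 3 it was at 0.21 ± 0.11 (adjusted p = 0.114). The day 7 call ended under 12 of the alternatives tried, among them median-of-ratios scaling and the loss of control 1, 2 or 5, of day 3 graft 4 or of day 7 graft 2 or 5, with adjusted p-values of 0.0606 to 0.298 over those 12. Without control 4 it passed at day 3 too (0.32, adjusted p = 0.0141). Atp6v1d, Atp6v1e1 and Atp6v1h, which belong to the central rotor, the peripheral stalks and the regulatory part of V1, did not pass, with changes of 0.16, 0.22 and 0.32 at day 7 and 0.14, 0.25 and 0.27 at day 3. In a fit of the deposited TPM all 3 were called higher at both times, with changes of 0.47, 0.61 and 0.71 at day 7 (adjusted p = 0.00469, 2.05e-05 and 1.94e-05) and 0.38, 0.54 and 0.55 at day 3 (adjusted p = 0.0188, 8.25e-05 and 0.000233). That fit moved the median change of all tested genes to 0.33 at day 7 and 0.22 at day 3. Without control 4, Atp6v1e1 (0.37, adjusted p = 0.0133) and Atp6v1h (0.45, adjusted p = 0.00637) passed at day 7, and both passed at day 3 (adjusted p = 0.00736 and 0.0118). Atp6v1h also passed at day 7 without day 7 graft 3 (adjusted p = 0.049). The catalytic ring subunits thus had larger changes than the stalk and regulatory subunits, a difference given here as a description.

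All 6 subunits of the V0 sector rose at both times, with median changes of 0.62 at day 7 and 0.65 at day 3. Atp6v0c, the proteolipid that makes up most of the rotating ring in the membrane, had 302, 313, 292, 300 and 373 CPM at day 7, 345, 282, 364, 348 and 298 CPM at day 3, and 140, 127, 134, 160 and 135 CPM in controls. The grafts of both times lay far above the controls, whose range was narrow. Its changes were 1.18 ± 0.10 (adjusted p = 3.93e-07) and 1.23 ± 0.10 (adjusted p = 3.85e-07). The related ring subunit Atp6v0b changed by 0.73 and 0.58, Atp6v0e by 0.51 and 0.39, and Atp6v0a1, one of the isoforms of the large a subunit, by 0.47 and 0.72. Atp6v0a1 lost its day 7 call when controls 2 and 5 were left out together (adjusted p = 0.0549). The day 3 call of Atp6v0e ended under 7 of the alternatives, at adjusted p-values of 0.0536 to 0.0826. These were upper quartile scaling, the fit of only the 2 groups, the loss of control 2, control 3, day 3 graft 3 or day 3 graft 4, and the loss of controls 2 and 5 together.

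The largest change of any of the 50 genes was that of Atp6v0d2, the inducible isoform of the d subunit, which couples the stalk to the ring and is known from osteoclasts and some macrophages. It lies on chromosome 4, at 19876841 to 19922605 on the minus strand of mm10. Its levels were 58.6, 90.1, 44, 50.4 and 17.6 CPM in day 7 grafts 1 to 5, 15.5, 11.5, 18.1, 6.3 and 24.2 CPM in day 3 grafts, and 1.1, 0.697, 0.678, 1.64 and 6.96 CPM in controls. Every day 7 graft exceeded every control, day 7 graft 5 lay within the day 3 range, and control 5 was just above day 3 graft 4. The change was 4.95 ± 0.77 at day 7 (adjusted p = 7.39e-05) and 3.20 ± 0.80 at day 3 (adjusted p = 0.00315).

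The ubiquitous isoform Atp6v0d1 had 112, 126, 108, 111 and 139 CPM at day 7, 128, 94.3, 123, 122 and 103 CPM at day 3, and 81.1, 72.2, 70.2, 122 and 86.5 CPM in controls. Control 4 lay within both graft ranges and the other controls lay below them. Its change was 0.49 ± 0.15 at day 7 (adjusted p = 0.00963) and 0.42 ± 0.15 at day 3 (adjusted p = 0.0209), and the day 3 result missed the threshold when control 2 or 3 or day 3 graft 4 was left out (adjusted p of 0.0506 to 0.0572). Both results did so when controls 2 and 5 were left out together (adjusted p = 0.053 at day 7 and 0.0954 at day 3).

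Set against each other in TPM, Atp6v0d2 made up 23.6, 29.6, 19.2, 21.1 and 7.1% of the d subunit transcripts in day 7 grafts 1 to 5, 6.63, 6.77, 8.14, 3.02 and 12.3% in day 3 grafts, and 0.798, 0.571, 0.567, 0.797 and 4.55% in controls. The share was highest in day 7 grafts 1 to 4, and Atp6v0d1 was the more abundant isoform in all 15 libraries. The a subunit also differed by isoform. Tcirg1, the a3 isoform of osteoclasts and macrophage lysosomes and not one of the 50 genes, had 164, 225, 207, 212 and 142 CPM at day 7, 157, 168, 170, 143 and 170 CPM at day 3, and 62.1, 51.4, 60, 35 and 73.5 CPM in controls. No control reached any graft, and the changes were 1.77 ± 0.18 (adjusted p = 1.62e-06) and 1.56 ± 0.18 (adjusted p = 5.06e-06). Tcirg1 held 70 ± 2.4% of a subunit TPM at day 7, 65.5 ± 4.85% at day 3 and 50 ± 8.17% in controls, while Atp6v0a2, an isoform of the Golgi and endosomes, held 9.36 ± 1.64%, 8.46 ± 1.13% and 20 ± 2.17% (SD, n = 5 each).

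**Figure D2:**
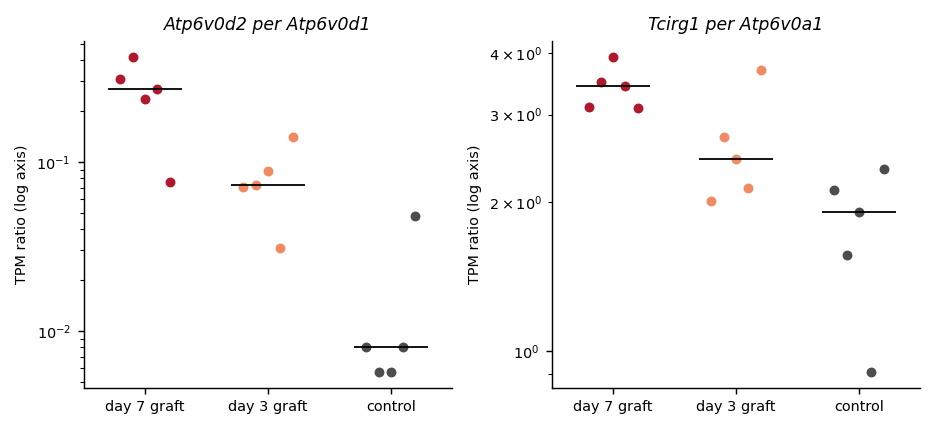
TPM ratios of V0 subunit isoforms in each library, on log axes, with a line at the group median. Atp6v0d2 per Atp6v0d1 ran from 0.0764 to 0.42 in day 7 grafts, 0.0311 to 0.14 in day 3 grafts and 0.00571 to 0.0476 in controls. Tcirg1 per Atp6v0a1 ran from 3.1 to 3.93, from 2.01 to 3.69 and from 0.907 to 2.33 in the same groups.

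Both accessory proteins of the pump rose. Atp6ap2, known as the prorenin receptor and needed for V-ATPase assembly, had 173, 160, 123, 149 and 154 CPM at day 7, 165, 107, 117, 122 and 136 CPM at day 3, and 54.6, 54.7, 53.9, 74.5 and 84 CPM in controls. Every graft lay above every control. Its changes were 1.25 ± 0.15 (adjusted p = 8.41e-06) and 1.02 ± 0.15 (adjusted p = 5.35e-05). Atp6ap1, which binds the V0 sector, had 319, 337, 341, 322 and 393 CPM at day 7, 389, 339, 389, 387 and 355 CPM at day 3, and 183, 193, 174, 277 and 226 CPM in controls. Its groups did not overlap with the controls either, and the changes were 0.72 ± 0.12 (adjusted p = 0.000163) and 0.84 ± 0.12 (adjusted p = 4.54e-05).

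In summed TPM the proteases were the most abundant class of the 50 genes. The 13 proteases summed to 15700 ± 804 TPM at day 7, 13100 ± 2560 TPM at day 3 and 3330 ± 924 TPM in controls, which made ratios of 4.71 and 3.93 to control. Of the 13, 11 rose and 1 fell at each time, with median changes of 1.56 and 1.59. Control 5 had the highest protease sum of the controls (4960 TPM, against 2640 to 3060 TPM in the others) and the highest sum of macrophage markers (1800 CPM, against 582 to 942 CPM). Day 3 grafts 2 and 5 had the lowest protease sums of the grafts (9630 and 11100 TPM) and the lowest sums of macrophage markers (3050 and 3490 CPM). The day 7 grafts did not follow this order. Day 7 graft 2 had the highest protease sum (16500 TPM) and the lowest macrophage sum of its group (3680 CPM). Day 7 graft 5 had 16300 TPM and 7070 CPM. The part of macrophages in the protease sums was not tested.

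**Figure D3:**
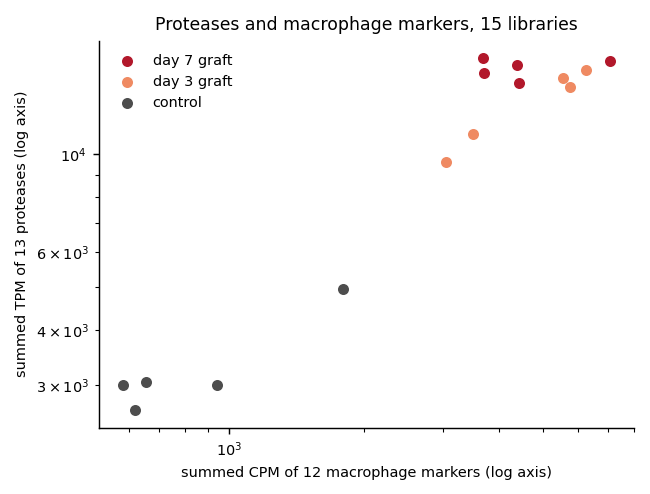
Summed TPM of the 13 proteases against the summed CPM of 12 macrophage markers in 15 libraries, both on log axes, 1 point per library. The controls lie at the lower left between 2640 and 4960 TPM, and the grafts at the upper right between 9630 and 16500 TPM. Both sums of a point come from the same library, the proteases in the deposited TPM and the markers in CPM on the scaled library size.

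Lgmn, the asparaginyl endopeptidase legumain that also activates cathepsins, lies on chromosome 12 (102394084 to 102439813 on mm10). It had 1200, 1190, 1270, 1230 and 1780 CPM at day 7, 1850, 1120, 1910, 1840 and 1180 CPM at day 3, and 124, 84.9, 110, 119 and 435 CPM in controls. The lowest graft stood above the highest control, control 5. Its changes were 3.21 ± 0.38 at day 7 (adjusted p = 6.74e-06) and 3.43 ± 0.39 at day 3 (adjusted p = 4.54e-06), which are 9.24-fold and 10.8-fold.

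Ctsk, cathepsin K, a collagen-degrading protease known from osteoclasts and activated fibroblasts, had 375, 407, 332, 352 and 438 CPM at day 7, 152, 140, 102, 179 and 138 CPM at day 3, and 43.6, 31.8, 17.5, 47.4 and 82.4 CPM in controls. The 3 groups did not overlap, with day 7 grafts highest and controls lowest. Its changes against control were 3.27 ± 0.32 at day 7 (adjusted p = 1.27e-06) and 1.82 ± 0.30 at day 3 (adjusted p = 0.000126). Ctsk and Ctss lie side by side on the plus strand of chromosome 3, at 95499256 to 95509362 and 95526786 to 95556403 on mm10, with 17.4 kb between them. Ctss, cathepsin S, which processes the invariant chain in antigen-presenting cells, had 1810, 1380, 1820, 1690 and 1910 CPM at day 7, 2060, 1010, 2270, 1650 and 1460 CPM at day 3, and 268, 221, 309, 103 and 542 CPM in controls. It rose by 2.76 ± 0.36 (adjusted p = 1.58e-05) and 2.69 ± 0.36 (adjusted p = 2.04e-05). Its graft groups overlapped, with a difference of 0.07 ± 0.40 between day 7 and day 3 (adjusted p = 0.952).

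Ctsl, cathepsin L, a broad endopeptidase, had 2300, 2420, 2230, 1970 and 3230 CPM at day 7, 1910, 1650, 2420, 2720 and 1640 CPM at day 3, and 264, 258, 198, 548 and 690 CPM in controls. All grafts lay above all controls, and controls 4 and 5 were the highest of the controls. The changes were 2.79 ± 0.33 (adjusted p = 5.63e-06) and 2.55 ± 0.32 (adjusted p = 1.21e-05). Ctsb, cathepsin B, had 5100, 6400, 5410, 5350 and 7050 CPM at day 7, 6740, 4780, 6880, 6420 and 5170 CPM at day 3, and 1810, 1570, 1280, 3070 and 2730 CPM in controls. The groups of grafts again lay wholly above the controls, with changes of 1.56 ± 0.23 (adjusted p = 4.09e-05) and 1.59 ± 0.23 (adjusted p = 3.61e-05).

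Ctsd, cathepsin D, the main aspartic protease of lysosomes, had 3440, 5080, 4190, 4050 and 4530 CPM at day 7, 3300, 1870, 3120, 3050 and 2160 CPM at day 3, and 1650, 1420, 1050, 2560 and 1610 CPM in controls. Day 7 grafts lay above all other libraries, and the day 3 range reached down past control 4. Its changes were 1.41 ± 0.23 (adjusted p = 9.42e-05) and 0.74 ± 0.22 (adjusted p = 0.00967). The remaining proteases that rose were the aminopeptidase Ctsh (1.85 and 1.89), the dipeptidyl peptidase Ctsc (1.6 and 1.72), the carboxypeptidases Ctsa (1.39 and 1.33) and Ctsz (1.05 and 1.18), and the tripeptidyl peptidase Tpp1 (0.71 and 0.53).

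Ctso, cathepsin O, was the protease that fell. It had 67.9, 72.2, 60.7, 65.1 and 70.2 CPM at day 7, 69.9, 71, 56.1, 64.4 and 65.5 CPM at day 3, and 84.2, 89.3, 86.6, 114 and 86.6 CPM in controls. No graft reached the lowest control. Its changes were -0.45 ± 0.10 at day 7 (adjusted p = 0.00131) and -0.49 ± 0.10 at day 3 (adjusted p = 0.00066). In a fit of the deposited TPM both calls ended, with changes of -0.08 (adjusted p = 0.542) and -0.25 (adjusted p = 0.0714). Ctsf, cathepsin F, did not pass at either time (-0.24 ± 0.28, adjusted p = 0.468, and -0.60 ± 0.29, adjusted p = 0.0796), and at day 3 it passed without control 3 (-0.76, adjusted p = 0.034) or without day 3 graft 2 (-0.75, adjusted p = 0.0412), and also with upper quartile scaling (0.0458) or sample quality weights (0.0232). Of the 16 genes of the matrix annotated with the papain family domain 9 are among the 50, and at day 7 their changes range from 3.27 for Ctsk to -0.45 for Ctso.

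**Figure D4:**
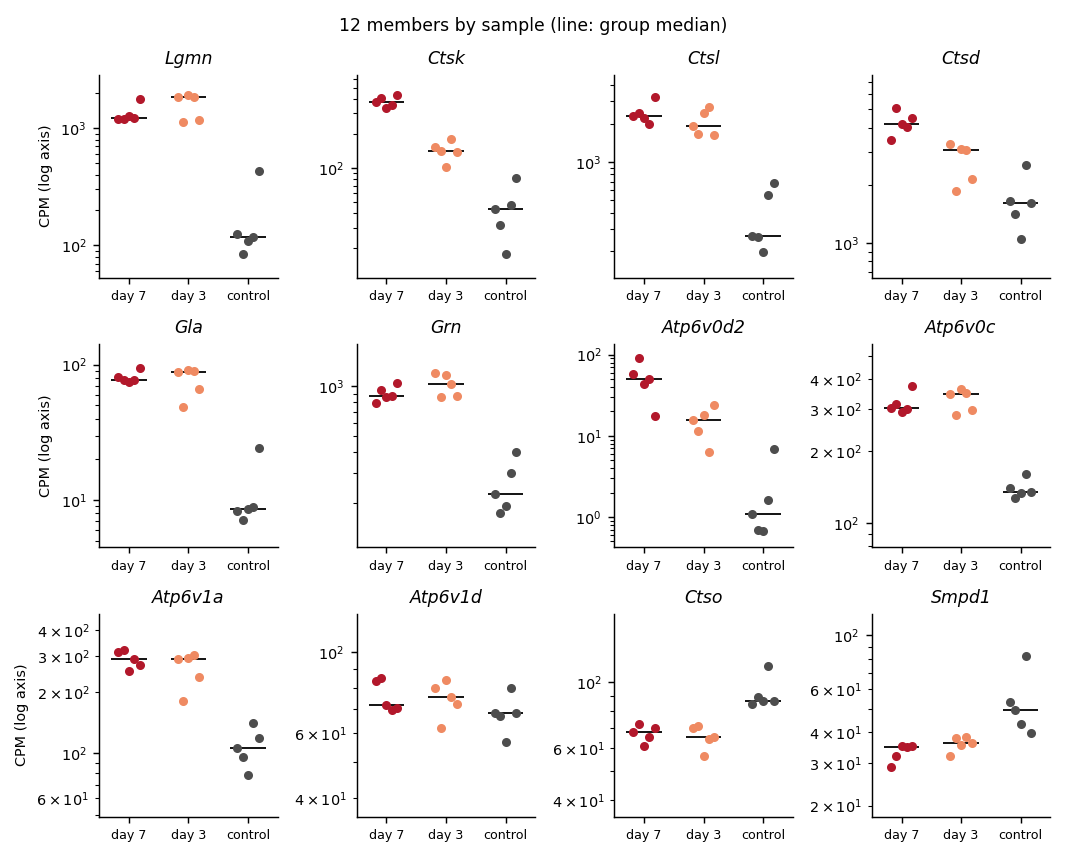
CPM of 12 of the genes in each library on log axes, day 7 grafts, day 3 grafts and controls from left to right, with a line at the group median. Ctsk separates all 3 groups, Lgmn, Gla and Grn separate grafts from controls with control 5 highest among the controls, and Ctso and Smpd1 are lower in the grafts.

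All 9 glycosidases rose at day 7 and 8 of 9 at day 3, with median changes of 1.13 and 1.08. Their sum was 906 ± 73.8 TPM at day 7, 687 ± 83 TPM at day 3 and 273 ± 65.4 TPM in controls, with control 5 at 377 TPM the highest control. Gla, alpha-galactosidase A, which cleaves globotriaosylceramide, had 81.5, 77.7, 74, 77.5 and 94.6 CPM at day 7, 87.8, 49, 92.1, 89.5 and 65.9 CPM at day 3, and 8.33, 7.2, 8.68, 8.88 and 24.3 CPM in controls. Control 5 stood apart from the other controls and was still below every graft. Its changes were 2.97 ± 0.27 (adjusted p = 6.83e-07) and 2.86 ± 0.27 (adjusted p = 1.05e-06).

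Gusb, beta-glucuronidase, had 245, 294, 261, 239 and 233 CPM at day 7, 223, 152, 205, 197 and 175 CPM at day 3, and 66.7, 59.7, 67.9, 67.8 and 119 CPM in controls. The 3 groups did not overlap. Its changes were 1.78 ± 0.17 (adjusted p = 1.09e-06) and 1.36 ± 0.17 (adjusted p = 1.03e-05). Hexa, the alpha subunit of beta-hexosaminidase, rose by 1.65 and 1.28, the mannosidases Manba by 1.38 and 1.15 and Man2b1 by 0.96 and 0.47, the beta-galactosidase Glb1 by 1.13 and 1.08, Naglu of heparan sulfate breakdown by 0.86 and 0.82, and the sialidase Neu1 by 0.49 at both times. Gaa, the acid alpha-glucosidase that degrades glycogen, passed at day 7 (0.43 ± 0.17, adjusted p = 0.0361) and not at day 3 (0.29 ± 0.16, adjusted p = 0.134). Its day 7 call ended under 13 of the alternatives, among them median-of-ratios scaling and the loss of control 1, 2, 3 or 5 or of day 7 graft 2, 3, 4 or 5, with adjusted p-values of 0.0555 to 0.157, and without control 4 it also passed at day 3 (0.47, adjusted p = 0.00623).

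Of the 4 lipid and phosphate hydrolases, 3 rose and 1 fell at each time. Asah1, acid ceramidase, had 317, 328, 280, 297 and 334 CPM at day 7, 350, 210, 294, 316 and 253 CPM at day 3, and 91.2, 91.1, 82.1, 141 and 151 CPM in controls. Every graft exceeded every control, and the changes were 1.53 ± 0.18 (adjusted p = 6.57e-06) and 1.38 ± 0.18 (adjusted p = 1.61e-05). Acp2, the lysosomal acid phosphatase, had 167, 155, 172, 146 and 125 CPM at day 7, 191, 122, 176, 160 and 143 CPM at day 3, and 79.6, 67.7, 65.4, 93.9 and 94.5 CPM in controls. It rose by 0.94 ± 0.14 (adjusted p = 6.41e-05) and 0.98 ± 0.14 (adjusted p = 4.47e-05), and the thioesterase Ppt1 rose by 0.57 and 0.61.

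Smpd1, acid sphingomyelinase, which makes the ceramide that Asah1 splits, ran the other way. It had 28.8, 32.1, 35.1, 34.9 and 35.3 CPM at day 7, 32.1, 37.8, 35.6, 38.4 and 36.2 CPM at day 3, and 53.2, 49.6, 43.1, 82 and 39.9 CPM in controls. In CPM every graft lay below every control, and control 4 was far above the other controls. In TPM control 4 was at 30, against 23 to 29.3 in the other controls. Day 7 grafts (19.7 to 25.8 TPM) and day 3 grafts (21.2 to 24.2 TPM) overlapped there with control 5 (23 TPM). Its changes were -0.65 ± 0.16 at day 7 (adjusted p = 0.00238) and -0.53 ± 0.16 at day 3 (adjusted p = 0.0089). Without control 4 the day 3 change was -0.34 (adjusted p = 0.00859), and in the fit of TPM the day 3 call ended (-0.24, adjusted p = 0.0579).

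Among the activators, Psap, prosaposin, the precursor of the saposins that present sphingolipids to their hydrolases, had 3770, 4880, 4180, 4590 and 5360 CPM at day 7, 4210, 3180, 4820, 4340 and 4020 CPM at day 3, and 1340, 1230, 1190, 1860 and 1480 CPM in controls. Grafts and controls did not overlap, and the changes were 1.70 ± 0.15 (adjusted p = 6.35e-07) and 1.55 ± 0.15 (adjusted p = 1.47e-06). Grn, progranulin, which is cleaved to granulins in the lysosome, had 794, 951, 861, 876 and 1050 CPM at day 7, 1190, 854, 1160, 1030 and 874 CPM at day 3, and 224, 173, 190, 300 and 403 CPM in controls. It rose by 1.89 ± 0.21 (adjusted p = 3.82e-06) and 2.05 ± 0.21 (adjusted p = 2.13e-06). Gm2a, the activator that lifts GM2 ganglioside to beta-hexosaminidase, did not pass at either time (-0.31 ± 0.16, adjusted p = 0.104, and 0.20 ± 0.16, adjusted p = 0.303). Without control 4 it passed at day 3 (0.35, adjusted p = 0.0264), and without day 7 graft 5 it passed at day 7 (-0.41, adjusted p = 0.0436). With sample quality weights it passed at both times, in opposite directions (-0.22, adjusted p = 0.0443, and 0.41, adjusted p = 0.00297).

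Both lysosome-associated membrane proteins rose. Lamp1 had 1220, 1340, 1230, 1260 and 1740 CPM at day 7, 1550, 1010, 1360, 1340 and 1150 CPM at day 3, and 594, 549, 508, 931 and 752 CPM in controls. Its lowest graft was above its highest control, control 4. The changes were 1.06 ± 0.18 (adjusted p = 0.000132) and 0.97 ± 0.18 (adjusted p = 0.000263). Lamp2, which is also the receptor of chaperone-mediated autophagy, had 654, 590, 507, 629 and 660 CPM at day 7, 753, 417, 523, 769 and 595 CPM at day 3, and 220, 226, 186, 472 and 391 CPM in controls. Day 3 graft 2 lay below control 4, and the changes were 1.12 ± 0.25 (adjusted p = 0.00123) and 1.10 ± 0.25 (adjusted p = 0.00147). Mcoln1, the calcium channel of the lysosomal membrane, did not pass, with -0.05 ± 0.11 at day 7 (adjusted p = 0.741) and -0.25 ± 0.11 at day 3 (adjusted p = 0.0611). At day 3 it passed as lower under 8 of the alternatives, at adjusted p-values of 0.0187 to 0.0496. These included median-of-ratios (0.0496) and upper quartile scaling (0.0198), sample quality weights (0.0187) and the loss of control 5, day 3 graft 2 or day 7 graft 5.

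The transcription factors of lysosomal genes did not move together. Tfe3 had 70.3, 72.3, 82.5, 80.2 and 85.6 CPM at day 7, 96.1, 80.8, 100, 96.3 and 87.5 CPM at day 3, and 50.1, 44, 42, 51.6 and 51.2 CPM in controls. Every graft was above every control, and it rose by 0.71 ± 0.09 (adjusted p = 1.61e-05) and 0.95 ± 0.09 (adjusted p = 1.51e-06). Tfeb had 5.76, 8.77, 7.65, 9.4 and 6.54 CPM at day 7, 7.96, 7.54, 9.45, 8.42 and 8.11 CPM at day 3, and 13.7, 11.9, 17.3, 6.65 and 6.92 CPM in controls. Controls 1 to 3 lay above every graft and controls 4 and 5 lay among the grafts. Its changes of -0.48 ± 0.24 (adjusted p = 0.103) and -0.34 ± 0.24 (adjusted p = 0.241) did not pass. With sample quality weights both passed as lower (-0.66, adjusted p = 0.0016, and -0.58, adjusted p = 0.00919). Leaving out control 4 or control 5 took the day 7 change past the threshold (-0.65, adjusted p = 0.0223, and -0.63, adjusted p = 0.0357). Leaving out both, a choice made after seeing the data, gave -0.95 at day 7 (adjusted p = 0.000251) and -0.79 at day 3 (adjusted p = 0.00102).

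As groups, the V-ATPase genes had smaller changes than the hydrolases. Of the 16 V-ATPase genes, 13 rose at day 7 and 12 at day 3, with a median change of 0.65 at both times, and 4 and 5 of them were called at 2-fold or more. Of the 26 hydrolases, 23 rose and 2 fell at day 7 and 22 rose and 2 fell at day 3, with medians of 1.38 and 1.17, and 16 and 15 of them rose by 2-fold or more. The 3 membrane proteins lay between, with medians of 1.06 and 0.97. Of all 16051 tested genes, 5525 at day 7 and 5447 at day 3 were called at 2-fold or more, counted in either direction. The V-ATPase counts at 2-fold or more do not exceed that share, and the hydrolase counts do. In summed TPM the V-ATPase genes reached 2820 ± 176 at day 7, 2550 ± 218 at day 3 and 1300 ± 98.3 in controls, ratios of 2.16 and 1.96. The ratios were 4.71 and 3.93 for proteases, 3.32 and 2.52 for glycosidases, and 2.62 and 2.34 for lipid and phosphate hydrolases. For the membrane proteins they were 2.61 and 2.33. Median changes of the lipid and phosphate hydrolases were 0.75 and 0.8, near those of the V-ATPase genes.

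Within each library, the mean log2(CPM + 1) of the V-ATPase genes minus that of the hydrolases was -0.87, -0.87, -1.1, -1 and -1.15 in day 7 grafts 1 to 5, -1, -0.93, -0.88, -1.15 and -0.83 in day 3 grafts, and -0.51, -0.47, -0.59, -0.35 and -0.83 in controls. Controls 1 to 4 lay above every graft, and control 5 was level with the highest day 3 graft. Without Atp6v0d2 the difference was -0.898 ± 0.0926 at day 7, -0.754 ± 0.0847 at day 3 and -0.23 ± 0.229 in controls (SD, n = 5 each). This contrast follows the choice of genes and carries no test.

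**Figure D5:**
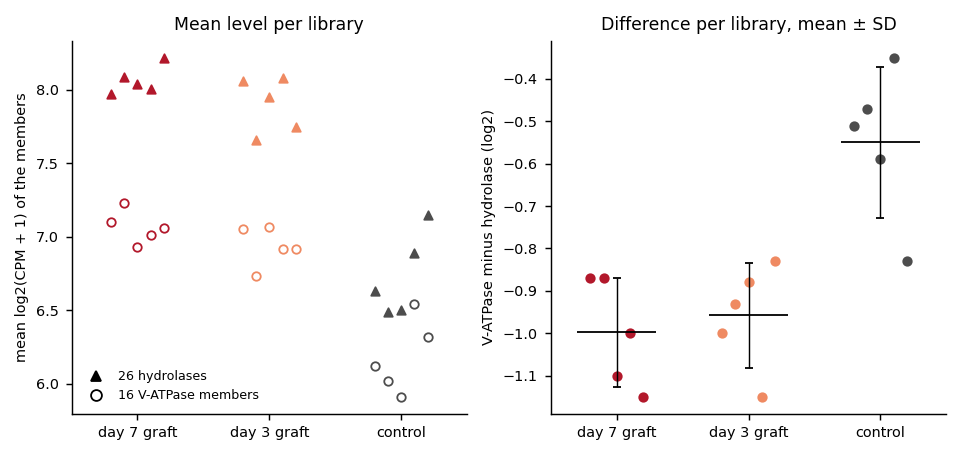
Mean log2(CPM + 1) of 26 hydrolases (triangles) and 16 V-ATPase genes (open circles) in each library, left, and the difference V-ATPase minus hydrolase with its mean and SD, right. The difference averaged -0.998 in day 7 grafts, -0.958 in day 3 grafts and -0.55 in controls, with control 5 lowest among the controls.

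The order of transcript levels also differed. In day 7 grafts the highest were Ctsb (3380 ± 296 TPM) and Ctsd (3350 ± 507 TPM), which did not differ beyond their spread, then Psap (2840 ± 306 TPM) and Ctsl (2660 ± 294 TPM), likewise within their spread, and Ctss (2290 ± 237 TPM). In day 3 grafts Ctsb (3110 ± 549 TPM) led, and Psap, Ctsl, Ctss and Ctsd lay between 2390 and 1980 TPM, within 1 SD of their neighbours. In controls Ctsd (949 ± 131 TPM) and Ctsb (858 ± 236 TPM) led, followed by Psap (664 ± 67.1 TPM), and Ctsb lay within its spread of both. These 5 genes were among the 100 most abundant of all genes in both graft groups, with Ctsb at rank 30 at day 7 and rank 36 at day 3, while in controls the highest of the 50 was Ctsd at rank 121. At the low end, Atp6v0d2 was the least abundant of the 50 in controls (1.11 ± 1.45 TPM), whereas Tfeb was the least abundant at day 7 (7.33 ± 1.52 TPM) and at day 3 (7.06 ± 0.348 TPM).

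Between day 7 and day 3 grafts, Ctsk and Atp6v0d2 were the 2 genes called, and both were higher at day 7. That count is near the 3.18% called higher over all tested genes. Ctsk differed by 1.44 ± 0.33 (adjusted p = 0.0228, 2.72-fold), with every day 7 graft above every day 3 graft. The call ended without day 3 graft 3 or 5 or without day 7 graft 1, 2, 3 or 4, at adjusted p-values of 0.0507 to 0.0626, and the change stayed between 1.32 and 1.51 over all single omissions. The summed fibroblast markers also did not overlap between the graft groups, at 17200 to 21400 CPM at day 7 and 7750 to 16000 CPM at day 3. The summed macrophage markers overlapped. Of the 8 fibroblast markers only 1 was called higher at day 7 than at day 3, with 3.18% over all tested genes. Their changes ran from -0.59 to 1.66, with a median of 0.33. The part of these markers in the Ctsk result was not tested.

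Atp6v0d2 differed by 1.76 ± 0.44 (adjusted p = 0.0341), with 4 of 5 day 7 grafts above every day 3 graft. Its call ended without day 3 graft 1, 2, 3 or 4 or without day 7 graft 1, 2, 3 or 4, at adjusted p-values of 0.0508 to 0.0965, and also with limma-trend on log2(CPM + 1) (adjusted p = 0.0571), and the change ran from 1.45 to 2.09 over all single omissions. Day 7 graft 5, the day 7 graft lowest in Atp6v0d2, had the highest sum of macrophage markers of all libraries (7070 CPM). The 8 markers of giant cells or osteoclasts summed to 179 to 260 CPM at day 7, 163 to 227 CPM at day 3 and 57.9 to 110 CPM in controls. Of these markers 4 of 5 tested were called higher at day 7 against control and 3 of 5 at day 3. Over all tested genes 32.2% and 30.1% were called higher. None of the 5 was called between day 7 and day 3, where their median change was 0.22. Siglec15 was at 0 in every day 3 graft and every control. The part of these markers in the Atp6v0d2 result was not tested.

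The other 48 genes did not pass between the times, and 4 of them had an unadjusted p under 0.05 with a higher level at day 7 and 2 with a lower one. Ctsd was at 0.68 ± 0.24 (adjusted p = 0.118) and Gusb at 0.42 ± 0.18 (adjusted p = 0.199), and in both the graft groups did not overlap. Man2b1 was at 0.48 ± 0.14 (adjusted p = 0.057) and Gm2a at -0.51 ± 0.16 (adjusted p = 0.0873). Each of these 4 passed under some alternatives, among them sample quality weights (adjusted p of 0.0132 for Ctsd, 0.0314 for Gusb, 0.00946 for Man2b1 and 0.000869 for Gm2a), and 3 of them, Ctsd, Man2b1 and Gm2a, passed without control 4 (adjusted p of 0.043, 0.0419 and 0.0211). Gusb and Man2b1 passed without control 5 (adjusted p of 0.044 and 0.0495), Man2b1 without day 3 graft 1 (0.0314) and Gm2a without day 7 graft 5 (0.0373). With sample quality weights, 6 genes were called higher and 2 lower. No gene was called lower by the fit of all samples.

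Other genes of the lysosome were taken from lists. Over all tested genes, 32.2% were called higher and 28.4% lower at day 7, and 30.1% and 30.3% at day 3. Of 25 further lysosomal hydrolases, 17 rose, 2 fell and 6 did not pass at each time, with medians of 0.71 and 0.44. Lipa, lysosomal acid lipase, which frees fatty acids and cholesterol from lipoproteins and lipid droplets, had 471, 722, 449, 562 and 413 CPM at day 7, 453, 231, 411, 327 and 294 CPM at day 3, and 69.7, 66, 61.1, 74.2 and 102 CPM in controls. Every graft lay above every control, and the changes were 2.8 ± 0.20 (adjusted p = 1.06e-07) and 2.19 ± 0.19 (adjusted p = 6.06e-07). The 2 that fell were Acp5 and Ctsw, a cathepsin of cytotoxic lymphocytes (-2.60 and -3.57). Beside Ctsw, the 8 T cell markers summed to 7.45 to 24.3 CPM at day 7, 4.18 to 10.7 CPM at day 3 and 28.5 to 767 CPM in controls, with control 4 the lowest control, and the part of this in the Ctsw result was not tested. Ctsw itself ran from 2.74 to 37.1 CPM in controls.

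Acp5, the tartrate-resistant acid phosphatase known as an osteoclast enzyme, had 77, 104, 74, 70.7 and 44.6 CPM at day 7, 31.4, 46.1, 60.3, 55.3 and 52.6 CPM at day 3, and 320, 382, 272, 857 and 267 CPM in controls. All grafts lay far below all controls, the opposite of Ctsk and Atp6v0d2, and control 4, which had the highest sum of adipocyte markers (28700 CPM), was the highest. Its changes were -2.39 ± 0.30 at day 7 (adjusted p = 1.03e-05) and -2.97 ± 0.30 at day 3 (adjusted p = 1.71e-06).

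Of 14 tested further lysosomal membrane and transport proteins, 9 rose and 1 fell at day 7 and 10 rose and 1 fell at day 3. Over all tested genes the shares were 32.2% higher and 28.4% lower at day 7, and 30.1% and 30.3% at day 3. Cd68, the macrosialin of macrophage lysosomes, rose by 3.48 ± 0.35 (adjusted p = 1.72e-06) and 3.44 ± 0.35 (adjusted p = 2.03e-06), and Slc11a1, the metal transporter of phagosomes, by 3.47 and 3.43. Cd63, a tetraspanin of late endosomes, rose by 1.92 and 1.54, and Abcb9, a lysosomal peptide transporter, fell (-2.37 and -2.25). Of 4 tested further V-ATPase subunits 1, Tcirg1, rose at both times, and 2 fell at each time. The count of higher calls is near the share over all tested genes. Atp6v0a2 fell at both (-0.20, adjusted p = 0.0481, and -0.35, adjusted p = 0.00243), Atp6v0e2 at day 7 (-2.10, adjusted p = 0.0015) and Atp6v1g2 at day 3 (-0.58, adjusted p = 0.0124).

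Of 10 genes that sort hydrolases to the lysosome, 4 rose and 2 fell at day 7 and 5 rose and 4 fell at day 3, beside 32.2% higher and 28.4% lower at day 7 and 30.1% and 30.3% at day 3 over all tested genes, so the day 7 counts are near that background. Igf2r, the large mannose 6-phosphate receptor, rose by 1.78 ± 0.18 (adjusted p = 1.76e-06) and 1.28 ± 0.18 (adjusted p = 2.78e-05), and Sort1, sortilin, fell (-1.90 and -1.94). Gnptab, the enzyme that starts the mannose 6-phosphate tag, was at 104 ± 4.69 CPM at day 7, 78.7 ± 7.55 CPM at day 3 and 101 ± 9.55 CPM in controls (SD, n = 5 each), and was called higher at day 7 than at day 3 (0.40 ± 0.09, adjusted p = 0.0226).

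Of 15 regulators, 8 rose and 3 fell at day 7 and 7 rose and 2 fell at day 3. Beside them, 32.2% of all tested genes were called higher and 28.4% lower at day 7, and 30.1% and 30.3% at day 3. The MiT/TFE genes Mitf (1.88 ± 0.24, adjusted p = 1.14e-05, and 2.27 ± 0.24, adjusted p = 2.45e-06) and Tfec (2.93 ± 0.53, adjusted p = 0.00027, and 2.92 ± 0.53, adjusted p = 0.000294) rose, as did Fnip2, a partner of folliculin in nutrient signalling at the lysosome (2.69 and 2.40). Rragb, a Rag GTPase, fell at a low level (0.245 ± 0.2 CPM at day 7, 0.154 ± 0.117 CPM at day 3 and 2.06 ± 1.09 CPM in controls).

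Of 7 tested cathepsin inhibitors 2 rose at each time, while 1 fell at day 7 and 3 fell at day 3. The count of higher calls is near the 32.2% and 30.1% called higher among all tested genes. Cstb, cystatin B, which inhibits cysteine cathepsins in the cytosol, rose by 2.04 ± 0.17 (adjusted p = 3.85e-07) and 2.09 ± 0.17 (adjusted p = 4.19e-07). Cst7, cystatin F of immune cells, fell (-2.26, adjusted p = 0.00895, and -2.76, adjusted p = 0.00422), with control 4 (1.05 CPM) within the day 7 range of 0.527 to 1.83 CPM and the other controls at 7.39 to 12.7 CPM. Over the whole annotation, 31 of the 50 genes carry the lysosome term of the matrix. Of the 192 other tested genes with that term, 92 rose and 33 fell at day 7 (47.9% and 17.2%), and 93 rose and 38 fell at day 3 (48.4% and 19.8%).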

How the data were processed

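RNA of 15 adipose samples was sequenced from stranded mRNA libraries with paired reads, per the labels' protocols. Per the submitters' processing notes, cutadapt 2.8, STAR 2.7.1a, RSEM 1.3.1 and build mm10 were used, without a role for each. Not given in the sources used here is the release of the annotation. The authors deposited 1 matrix with a TPM, an RPKM and an estimated count per gene and sample, per the file headers. Whole numbers with digit separators hold the authors' estimated counts, without scaling. The RPKM values deposited by the authors were not used in any test. The TPM values deposited by the authors served for levels between genes and in 1 alternative. Each of the 45 value columns names its sample by number.

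The separators were removed, and the values entered the filter, the scaling and voom as counts. Other count models were not run. Genes needed 5 or more samples with a CPM of 0.3894 or above (10 counts in the median library) and a total of 15 counts. Scaling of libraries used trimmed means of M-values (trims of 30% and 5%, factors 0.746 to 1.14), and the counts were fitted with voom in limma 3.58.1 (R 4.3.3, with the package data.table in version 1.17.8) as 3 group means. Voom's offset before the log affects genes with counts near 0. CPM values use the scaled library sizes. Two-sided adjusted p-values are Benjamini-Hochberg values over all 16051 tested genes. Alternatives changed the scaling, the filter, the samples in the fit, the replicate number as a term, the method (limma-trend with a pseudocount of 1, sample quality weights) and left out samples. The fit was tested on simulated counts.

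The 50 genes and all lists were chosen with earlier results of these data known. For all 50, the symbol and chromosome matched a RefSeq gene table of the same build. Values in every sample are given for the 2 called genes with the largest change in each role, genes called against the majority, genes called between day 7 and day 3, the 4 with the highest mean TPM, Atp6v0d1, Tfeb and Tfe3. Ctss, Lipa, Acp5 and Tcirg1 were added. Up to 4 called genes of each other list were named. Of the listed names 2 were not matched. For a listed gene among the 118 repeated symbols, the row with the highest total count was taken. Promoter motifs were not analysed here. The plots were made in Python 3.11.15 (matplotlib 3.10.9).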

Additional observations from a re-analysis of the deposited data

Results flagged for a closer look

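In 10 of 150 sets of 5 replicates (50 genes in 3 groups), the highest library was farther from its neighbours than 95% of such sets would show, where chance gives about 1 in 20. Control 5 stood apart in 3 hydrolases. It had 435 CPM of Lgmn (the other controls 84.9 to 124 CPM), 24.3 CPM of Gla (7.2 to 8.88 CPM) and 119 CPM of Gusb (59.7 to 67.9 CPM). This library also had the highest sum of macrophage markers among the controls, at 1800 CPM.

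Control 4 stood apart in Atp6v0a1 (97.4 CPM, the other controls 67.6 to 72.5 CPM), Ctso (114 CPM, against 84.2 to 89.3 CPM) and Gm2a (327 CPM, against 191 to 223 CPM). It had the lowest scaling factor, 0.746. In TPM the same library was lowest of the controls in Atp6v0a1 (24.9) and Ctso (28.7) and within their range in Gm2a (66.8).

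Day 7 graft 5 stood apart in Lgmn (1780 CPM, the other day 7 grafts 1190 to 1270 CPM), Lamp1 (1740 CPM, against 1220 to 1340 CPM) and Atp6v0c (373 CPM, against 292 to 313 CPM). It had the highest sum of macrophage markers of the day 7 grafts, at 7070 CPM. Day 3 graft 3 stood apart in Atp6v1f (60.8 CPM, the other day 3 grafts 47.6 to 50.9 CPM). The part of markers or scaling in these values was not tested.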

How the results depend on the processing

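None of the 55 changes of single genes recomputed under the alternatives reversed after being called. Higher calls against control stayed within 1.5 times under all alternatives. Lower calls at day 7 against control moved to 1 on TPM and 4 with sample quality weights; at day 3 to 4 with upper quartile scaling, 5 with quality weights and 0 on TPM (limma-trend, 2 at an unadjusted p under 0.05). On TPM the medians of V-ATPase genes and hydrolases were 1.03 and 1.70 at day 7, 0.96 and 1.42 at day 3, and the hydrolase median was 0.19 between the times. TPM moved the median of all tested genes to 0.33 and 0.22 against control, and its calls to 46.1% higher and 16.1% lower at day 7 and 39.3% and 18.5% at day 3; library totals moved the day 7 median to 0.12.

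For day 7 against day 3, higher calls were 4 with only these groups in the fit, 6 with quality weights and 5 without controls 4 and 5, and lower calls were 1, 2 and 1, with 1 for library totals. The replicate numbers did not pair the samples (correlations of deviations -0.19 to 0.34), and with the replicate block higher calls were 1, with Atp6v0d2 at an adjusted p of 0.102, and limma-trend on CPM gave it 0.0571. Leaving out 1 sample gave 39 to 43, 37 to 44 and 0 to 4 higher calls for day 7 against control, day 3 against control and day 7 against day 3, and 2 to 3, 2 to 4 and 0 to 1 lower calls. V-ATPase medians ran 0.59 to 0.77, 0.61 to 0.76 and 0 to 0.09, and hydrolase medians 1.31 to 1.45, 1.08 to 1.27 and 0.01 to 0.11. The cause was not tested. With 5 samples a group, changes under 2-fold can be missed.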
